A study of Mus musculus with 8 samples.

Results

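The contractile apparatus of smooth muscle was followed through 10 genes, Acta2, Tagln, Myh11, Cnn1, Myl9, Mylk, Cald1, Tpm2, Smtn and Actg2. They were chosen by name from 22552 gene symbols, with earlier results of these data known. All were listed in each of 8 RNA sequencing libraries of RNA purified by UCP1-TRAP, in which a GFP-tagged ribosomal protein is made in cells that use Ucp1, so that an anti-GFP antibody recovers their ribosomes and the mRNA on them. There were 3 libraries of inguinal white adipose tissue (inguinal WAT), 2 of perigonadal WAT and 3 of interscapular brown adipose tissue (BAT), all from females of the strain labelled C57B/6 UCP1-TRAP. Every mouse carried the same transgene and the same history: birth at 30 °C, weaning at 3 weeks into room temperature, a move to 4 °C at 4 weeks and tissue harvest 2 weeks later, at 6 weeks of age. No group without cold, without the transgene or of unbound RNA entered the comparisons, and the labels do not say whether animals were pooled or whether libraries of different depots came from the same animals. By its title, the study is concerned with whether beige adipocytes, the UCP1-positive cells that appear in white fat in the cold, arise from cells like smooth muscle.

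Smooth muscle shortens when myosin filaments, built from the heavy chain Myh11 and light chains such as Myl9, pull on thin filaments of smooth muscle actin. Myosin light chain kinase, encoded by Mylk, starts the pull by phosphorylating the regulatory light chain, while tropomyosin, caldesmon and calponin lie along the thin filament. The same genes are active outside muscle walls, in pericytes, myofibroblasts and the myoepithelial cells of the mammary gland, and many are targets of the transcription factor SRF, which binds a DNA element called the CArG box. In RNA of bulk samples, fewer cells of a type and less RNA per cell cannot be told apart.

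Ucp1 was between rank 3 and rank 6 of all genes in every library, at 592 to 1593 FPKM. Without a group of unbound RNA, this level cannot show how far the RNA came from UCP1-positive cells alone. FPKM are fragments scaled by transcript length and by library size, so levels of different genes can be set side by side. The libraries were shallow and unequal, from an estimated 274771 fragments in inguinal replicate 3 to 1174755 in perigonadal replicate 1. Over all 8958 genes tested, the median difference in log2(FPKM + 1) was 0.03 for inguinal WAT minus BAT, 0.52 for perigonadal WAT minus BAT and -0.50 for inguinal minus perigonadal WAT. Median-ratio scaling moved them to 0.00, 0.01 and -0.00.

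Contractile genes were more abundant in inguinal WAT than in BAT, where most of them were at or near 0. Of the 10 genes, 8 were called higher in inguinal WAT and 0 lower by limma at an adjusted p under 0.05, where 1.73% of 8958 tested genes were called higher and 0.469% lower (2.20% in either direction). Mylk and Smtn did not pass. Every inguinal library was above every BAT library for 10 of 10 genes, against 6.81% of tested genes, and below for none (5.37% of tested genes). These shares cover all tested genes, not only those low in BAT. The 10 genes were chosen with earlier results of these data known, so the shares give a scale and do not test the set. All 10 passed the filter on low values (1 FPKM in 2 libraries) without any BAT library reaching 1 FPKM, so that they had little room to be called lower. Among the 1064 tested genes that also stayed under 1 FPKM in every BAT library, 8.55% were called higher and 0.00% lower. The median difference of the 10 was 2.01 on the log2(FPKM + 1) scale. Without the filter, when 15148 genes were tested, Acta2 and Tagln kept their calls against BAT, at much weaker limma adjusted p of 0.0138 and 0.0307. No other call among the 10 genes remained in any comparison.

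The summed level of the 10 genes was 158, 70.3 and 47.1 FPKM in inguinal replicates 1, 2 and 3, 17.6 and 7.87 FPKM in perigonadal replicates 1 and 2, and 0.640, 0.566 and 1.26 FPKM in BAT replicates 1, 2 and 3. The 3 depots did not overlap on this sum, with perigonadal WAT in between. Acta2 alone made up 54.7 to 57.1 percent of the sum in inguinal WAT and 10.9 to 12.3 percent in perigonadal WAT.

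**Figure D1:**
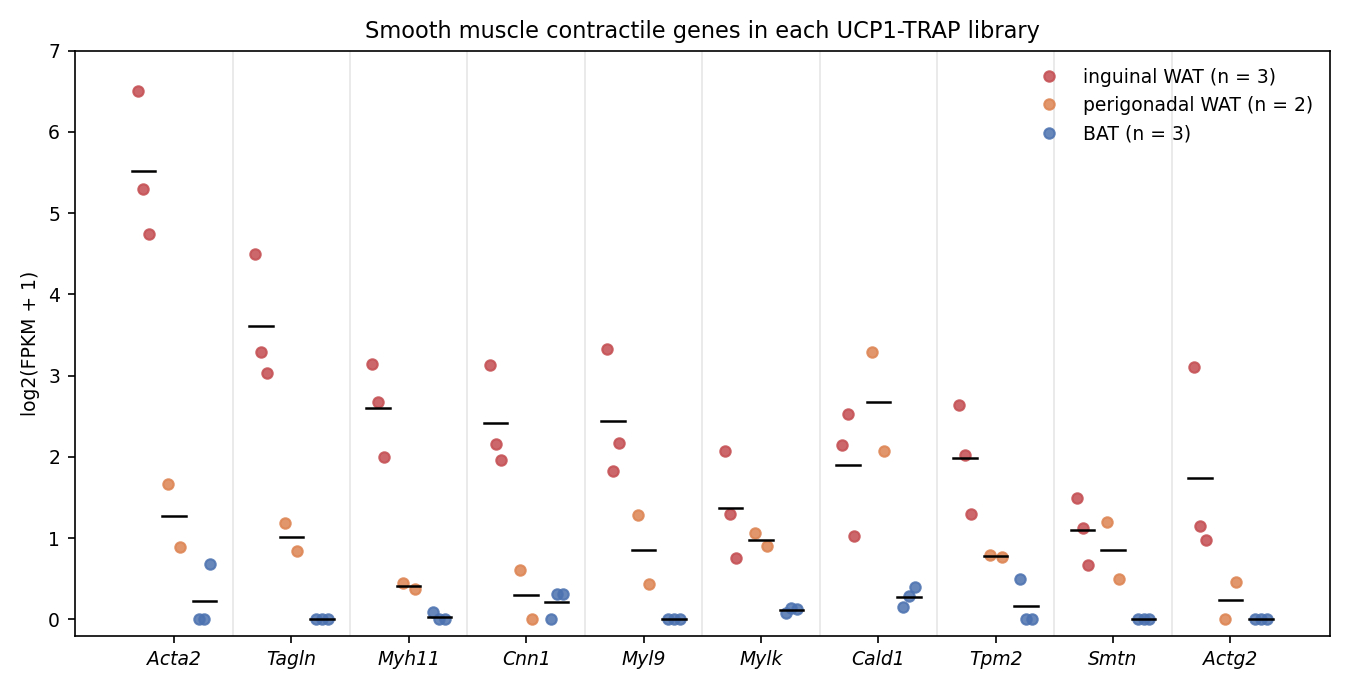
Level of each contractile gene on the vertical axis, as log2(FPKM + 1), with 1 point per library and a black line at the mean of each depot (3 inguinal, 2 perigonadal and 3 BAT libraries). Inguinal points lie above BAT points for each gene, and Cald1 is the gene whose perigonadal mean (5.98 FPKM) exceeds its inguinal mean (3.08 FPKM).

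Promoters are shown for the members whose start sites hold a CArG-like element, since SRF sites are a known feature of this gene group. RefSeq promoter windows on GRCm38.p6, 250 bases before to 50 after the start, matched 7 of the 10 members by symbol (Acta2, Cald1, Cnn1, Myl9, Mylk, Smtn and Tpm2). The CArG box was searched as its 10-base consensus, which reads the same way on both strands, exactly and with at most 1 mismatch among its central A or T bases. In the sequences below, written 5′ to 3′ along the gene's strand, capitals mark the matches. The Acta2 window is chr19:34255324-34255623 on the minus strand and the Myl9 window chr2:156775214-156775513 on the plus strand, both in GRCm38.p6.
Acta2: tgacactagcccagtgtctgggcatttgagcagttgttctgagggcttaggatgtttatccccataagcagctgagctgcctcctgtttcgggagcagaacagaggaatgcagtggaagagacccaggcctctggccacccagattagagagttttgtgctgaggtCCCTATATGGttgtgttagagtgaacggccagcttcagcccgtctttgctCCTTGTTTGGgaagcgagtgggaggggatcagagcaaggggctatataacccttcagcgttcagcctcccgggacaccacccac
Myl9: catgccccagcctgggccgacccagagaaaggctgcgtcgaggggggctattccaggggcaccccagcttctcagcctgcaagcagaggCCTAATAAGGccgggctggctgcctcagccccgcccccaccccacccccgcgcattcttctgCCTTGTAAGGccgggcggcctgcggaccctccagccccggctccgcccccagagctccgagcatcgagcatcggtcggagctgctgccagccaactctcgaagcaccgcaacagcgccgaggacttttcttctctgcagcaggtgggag
The Myl9 window held the exact match CCTAATAAGG 161 bases before the start and a match with 1 mismatch, CCTTGTAAGG, 99 bases before it. The Acta2 window held CCCTATATGG and CCTTGTTTGG, each with 1 mismatch, 84 and 34 bases before the start. An exact match was present in 1.63% and a match with at most 1 mismatch in 9.98% of all 32851 promoter windows. The windows of the other 5 members held no match of these letters.

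Of the 10 genes, Acta2 had the largest difference between inguinal WAT and each of the other depots. Acta2 (chr19:34315581-34329826, mm9), alpha smooth muscle actin, had 90.0, 38.4 and 25.7 FPKM in the inguinal libraries, 2.17 and 0.856 in the perigonadal libraries and 0.00132, 0.00459 and 0.601 in the BAT libraries. No library of a depot overlapped those of another. In inguinal WAT Acta2 ranked between 278 and 625 of all genes, an abundant mRNA. The inguinal mean was 51.4 ± 34.0 FPKM (SD, n = 3) and the BAT mean 0.202 ± 0.345 FPKM (SD, n = 3), a difference of 5.29 on the log2(FPKM + 1) scale (SE 0.42, limma adjusted p = 1.70e-16). The size of that p-value depended on the settings. It was 1.6e-05 after median-ratio scaling and 0.0138 without the filter on low values. Pooled over libraries, an estimated 530 fragments in inguinal WAT stood against 2 in BAT, a ratio of 249 with a 95% exact interval from counting error of 68.5 to 2058. The perigonadal mean, 1.51 ± 0.931 FPKM (SD, n = 2), did not pass against BAT (difference 1.05, SE 0.47, limma adjusted p = 0.180) and was lower than inguinal WAT (inguinal minus perigonadal 4.24, SE 0.47, limma adjusted p = 3.57e-10).

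Actg2 (chr6:83462903-83486245, mm9), gamma smooth muscle actin, typical of gut and bladder wall, had 7.63, 1.22 and 0.970 FPKM in the inguinal libraries, 0 and 0.381 in the perigonadal libraries and 0 in the BAT libraries. Inguinal replicate 1 was far above the other 2, which lay between it and the perigonadal values. Actg2 was higher in inguinal WAT than in BAT (difference 1.75, SE 0.40, limma adjusted p = 0.00325), and the pooled 24 fragments were at least 7.51-fold above a floor of 3 fragments over the BAT group. The call against BAT was lost with a pseudocount of 0.1 (limma adjusted p = 0.0590), and the gene dropped below the filter without inguinal replicate 1 or 2. It did not pass between inguinal and perigonadal WAT (difference 1.51, limma adjusted p = 0.0988), but passed without perigonadal replicate 2 (adjusted p = 0.0377) and with a pseudocount of 5 (0.0285). Actin genes have near-identical coding sequences and Cufflinks divides fragments between similar transcripts. The fragment number came out whole, within 0.05, in 3 of 8 libraries for Acta2, whose low values are therefore uncertain, and in 4 of 4 libraries above 0 for Actg2.

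The myosin genes differed between depots in the same direction. Myh11 (chr16:14194620-14291501, mm9), the smooth muscle myosin heavy chain, had 7.84, 5.42 and 3.00 FPKM in inguinal WAT, 0.370 and 0.296 in perigonadal WAT and 0.0634, 0 and 0 in BAT. The depots did not overlap, and the inguinal libraries differed less from each other than for Acta2. Its difference between inguinal WAT and BAT was 2.58 (SE 0.38, limma adjusted p = 7.89e-07), with an estimated 207 fragments against 1, a ratio of 194 (95% exact interval 34.5 to 7708, counting error). Inguinal WAT was also higher than perigonadal WAT (difference 2.19, SE 0.42, limma adjusted p = 0.00117), a call lost without inguinal replicate 1 (adjusted p = 0.05004). Cufflinks placed nearly all Myh11 signal on the 6593-nt transcript in inguinal replicates 1 and 3 (7.79 and 2.99 FPKM) and on the 6632-nt transcript in inguinal replicate 2 (5.31 FPKM), so the transcript forms were not stable between replicates, and their sum was used.

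Myl9 (chr2:156601200-156607393, mm9), the regulatory light chain of smooth muscle myosin, had 9.02, 2.55 and 3.50 FPKM in inguinal WAT, 1.43 and 0.351 in perigonadal WAT and 0 in all BAT libraries. It was at least 12.5-fold higher in inguinal WAT than the floor of 3 fragments in BAT (40 fragments, difference 2.44, SE 0.39, limma adjusted p = 5.58e-06). Against perigonadal WAT it did not pass (difference 1.58, SE 0.43, limma adjusted p = 0.0607), though the groups did not overlap, and it passed without inguinal replicate 2 (adjusted p = 0.0105) and with a pseudocount of 5 (0.0170).

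Mylk (chr16:34785036-35002520, mm9), the kinase that switches myosin on, had 3.21, 1.46 and 0.683 FPKM in inguinal WAT, 1.09 and 0.869 in perigonadal WAT and 0.0533, 0.0991 and 0.0967 in BAT. The 2 white depots overlapped, and both lay above BAT. Pooled fragments were 113 in inguinal WAT, 48 in perigonadal WAT and 5 in BAT, a ratio to BAT of 21.2 (95% exact interval 8.82 to 66.6, counting error) and 11.4 (4.58 to 36.8). On the log2(FPKM + 1) scale, which compresses such low values, Mylk did not pass against BAT in inguinal WAT (difference 1.26, SE 0.37, limma adjusted p = 0.0540) or perigonadal WAT (0.87, SE 0.42, limma adjusted p = 0.215). The inguinal comparison passed without inguinal replicate 3 (limma adjusted p = 0.0177), perigonadal replicate 1 (0.0341) or perigonadal replicate 2 (0.0266). It also passed in a fit of only the groups compared (0.0355), with a replicate block (0.0304), after median-ratio scaling (0.0211) and with equal FPKM totals (0.0192). Under the other alternatives that tested Mylk it did not pass, among them pseudocounts of 0.1 (limma adjusted p = 0.0750) and 5 (0.06015).

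Among the genes for proteins along the thin filament, Cald1 was the one with a higher mean in perigonadal than in inguinal WAT. Cald1 (chr6:34659444-34725469, mm9), caldesmon, had 3.43, 4.77 and 1.03 FPKM in inguinal WAT, 8.75 and 3.21 in perigonadal WAT and 0.112, 0.217 and 0.314 in BAT. Perigonadal replicate 1 was the highest library, and the white depots overlapped. Cald1 was the only one of the 10 genes called in perigonadal WAT against BAT (difference 2.40, SE 0.44, limma adjusted p = 0.000106), where 4.91% of 8958 tested genes were called higher and 0.268% lower (5.18% in either direction), or 12.4% and 0.00% of the genes under 1 FPKM in every BAT library. It was called in inguinal WAT too (1.62, SE 0.40, limma adjusted p = 0.00870), and inguinal minus perigonadal WAT was -0.78 (SE 0.44, limma adjusted p = 0.406). The perigonadal call was lost without perigonadal replicate 1 (adjusted p = 0.0605), and the inguinal call with a pseudocount of 5 (0.0701) or when inguinal replicate 1 (0.122), inguinal replicate 2 (0.123) or BAT replicate 1 (0.0625) was left out. The files list a single caldesmon transcript, so smooth muscle and nonmuscle caldesmon were not separated.

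Cnn1 (chr9:21903697-21913665, mm9), calponin 1, which binds actin in differentiated smooth muscle, had 7.78, 3.45 and 2.90 FPKM in inguinal WAT, 0.519 and 0 in perigonadal WAT and 0, 0.246 and 0.246 in BAT. Only inguinal WAT stood clear, while perigonadal WAT and BAT overlapped. Its differences were 2.21 against BAT (SE 0.38, limma adjusted p = 3.33e-05) and 2.12 against perigonadal WAT (SE 0.42, limma adjusted p = 0.00264), the latter lost without inguinal replicate 1 (adjusted p = 0.0854). Pooled fragments numbered 60 in inguinal WAT, 3 in perigonadal WAT and 2 in BAT.

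Tagln (chr9:45737711-45744141, mm9), transgelin or SM22-alpha, an actin-binding protein and early smooth muscle marker, had 21.7, 8.78 and 7.20 FPKM in inguinal WAT, 1.28 and 0.796 in perigonadal WAT and 0 in each BAT library. The depots did not overlap. Tagln was the gene with the second-highest mean in inguinal WAT, and its 130 pooled fragments were at least 40.7-fold above the BAT floor (difference 3.61, SE 0.39, limma adjusted p = 6.62e-11). In perigonadal WAT 9 fragments were at least 3.58-fold above that floor, a difference that did not pass (1.02, SE 0.44, limma adjusted p = 0.166). Inguinal minus perigonadal WAT was 2.59 (SE 0.44, limma adjusted p = 0.000116). Tagln overlaps Pcsk7, on the other strand, by 95 bases, a gene at 1.07 to 1.62 FPKM in the same BAT libraries that list Tagln at 0.

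Tpm2 (chr4:43527584-43536260, mm9), beta-tropomyosin, had 5.23, 3.06 and 1.46 FPKM in inguinal WAT, 0.727 and 0.70 in perigonadal WAT and 0.409, 0 and 0 in BAT. The depots did not overlap, but perigonadal values were low and close together. Tpm2 was higher in inguinal WAT than in BAT (difference 1.82, SE 0.38, limma adjusted p = 0.000938) and did not pass against perigonadal WAT (1.21, limma adjusted p = 0.228). Smtn (chr11:3417525-3439295, mm9), smoothelin, found in fully differentiated smooth muscle, had 1.82, 1.18 and 0.593 FPKM in inguinal WAT, 1.30 and 0.415 in perigonadal WAT and 0 in BAT. Its 24 inguinal and 14 perigonadal fragments were at least 7.51-fold and 5.56-fold above the BAT floor. Smtn did not pass against BAT in inguinal WAT (difference 1.10, limma adjusted p = 0.127, 0.0264 after median-ratio scaling) or perigonadal WAT (0.85, limma adjusted p = 0.216).

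**Figure D2:**
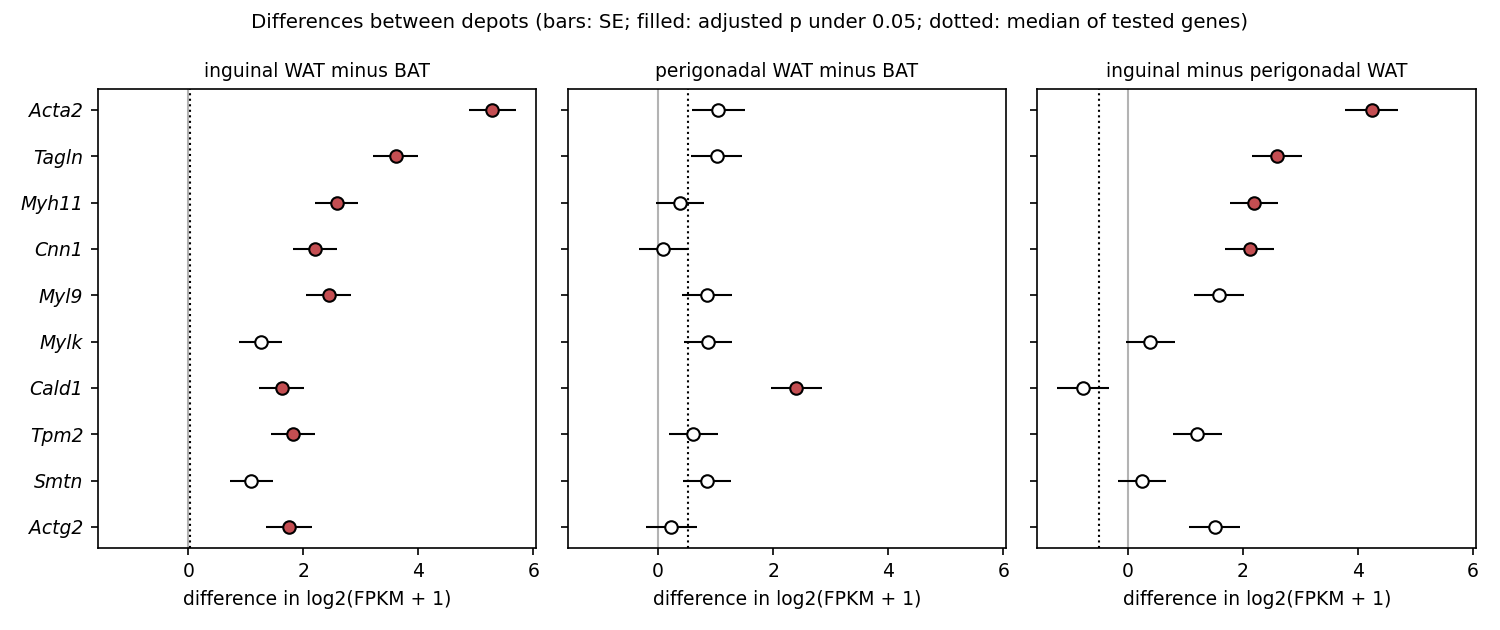
Difference in log2(FPKM + 1) between depots for each contractile gene, with the standard error as a bar, filled points at an adjusted p under 0.05 and a dotted line at the median of all tested genes. The panels hold 8 filled points for inguinal WAT minus BAT, 1 for perigonadal WAT minus BAT (Cald1) and 4 for inguinal minus perigonadal WAT.

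Perigonadal WAT thus held low but non-zero levels of most of these genes. Its libraries lay above all BAT libraries for 8 of 10 genes, the exceptions being Cnn1 and Actg2, but 48.3% of all tested genes did so too (3.72% lay below), and limma called 1 of 10 higher and 0 lower. The median difference of the 10 genes from BAT was 0.85, beside 0.52 for all tested genes, and 0.62 beside 0.01 after median-ratio scaling. Cnn1 turned from 0.09 to -0.055 under that scaling. Between the white depots, 4 genes were called higher in inguinal WAT (Acta2, Tagln, Myh11 and Cnn1) and 0 lower, where 0.301% of tested genes were called higher and 0.402% lower. Among the 232 tested genes under 1 FPKM in every perigonadal library, a group that includes Myh11, Cnn1, Tpm2 and Actg2, 8.19% were called higher and 0.00% lower. Inguinal libraries lay above both perigonadal libraries for 7 of 10 genes, against 1.44% of tested genes, and below both for none (27.5% of tested genes). The median difference between the white depots was 1.55 for the 10 genes and -0.50 for all tested genes. Comparisons with BAT share the BAT libraries, and comparisons of inguinal WAT share its libraries.

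The order of the genes by level also differed between depots. In inguinal WAT Acta2 was followed by Tagln, Myh11, Myl9, Cnn1, Actg2, Tpm2, Cald1, Mylk and Smtn. Acta2 was above Tagln in 3 of 3 libraries without overlap of their ranges, whereas the ranges of all later neighbours overlapped. In perigonadal WAT Cald1 came first, at 5.98 ± 3.92 FPKM (SD, n = 2), without overlap with Acta2, which was followed by Tagln, Mylk, Myl9, Smtn, Tpm2, Myh11, Cnn1 and Actg2. Of these later neighbours, only Tpm2 and Myh11 had ranges that did not overlap. In BAT Cald1 and Acta2 led at 0.215 and 0.202 FPKM, and Tagln, Myl9, Smtn and Actg2 were listed at 0 in all 3 libraries.

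For 6 protein families, those of Acta2 and Actg2, Myh11, Myl9, Tpm2, Cnn1 and Tagln, relatives outside the contractile genes were in the lists. The share of the contractile genes within a family does not move with the scaling between libraries. Relatives were not sorted by transcript form (Tpm1 has 10 transcripts). A share is therefore that of the named genes, not of all smooth muscle forms. The actin share (Acta2 and Actg2 over these plus Actb and Actg1) was 22.2, 11.5 and 15.6 percent in inguinal WAT, 0.546 and 0.393 percent in perigonadal WAT and 0.000853, 0.00307 and 0.315 percent in BAT. Cytoplasmic actin therefore made up most of the actin mRNA in every depot. Myh11 made up 39.0, 35.5 and 33.7 percent of myosin heavy chain FPKM (with Myh9, Myh10 and Myh14) in inguinal WAT, 2.33 and 3.73 percent in perigonadal WAT and 1.37, 0 and 0 percent in BAT. The inguinal mean was 36.1 ± 2.71 percent (SD, n = 3), a small spread beside that of the actin share, 16.4 ± 5.41 percent (SD, n = 3).

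The Myl9 share of Myl9 and Myl12b was 40.1, 11.3 and 38.9 percent in inguinal WAT, 5.97 and 2.51 percent in perigonadal WAT and 0 in BAT. Tpm2 made up 15.7, 15.6 and 13.9 percent of the tropomyosins in inguinal WAT, 3.51 and 4.79 percent in perigonadal WAT and 5.23, 0 and 0 percent in BAT. The Tpm2 share in BAT rests on 2 fragments in BAT replicate 1. Tagln exceeded its relative Tagln2 in inguinal WAT, at 81.8, 74.8 and 89.7 percent of their sum, and had 30.0 and 53.1 percent in perigonadal WAT and 0 in BAT. Cnn1 had 43.8, 52.7 and 66.3 percent of calponin FPKM in inguinal WAT and 24.2 and 0 percent in perigonadal WAT. The calponin share was not compared with BAT, where Cnn2 and Cnn3 were at 0 and Cnn1 had 2 fragments.

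Inguinal shares did not overlap those of BAT or perigonadal WAT in any family compared. In exact two-sided permutation tests over libraries, the inguinal shares gave p = 0.1 against BAT and p = 0.2 against perigonadal WAT, which are the smallest values that 3 against 3 and 3 against 2 libraries allow. The perigonadal shares gave exact permutation p = 0.2 against BAT, or 0.6 for tropomyosin. Over all 16 share tests the adjusted permutation p was 0.213, or 0.6 for that comparison, so that no share difference passed a threshold the design could not reach.

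**Figure D3:**
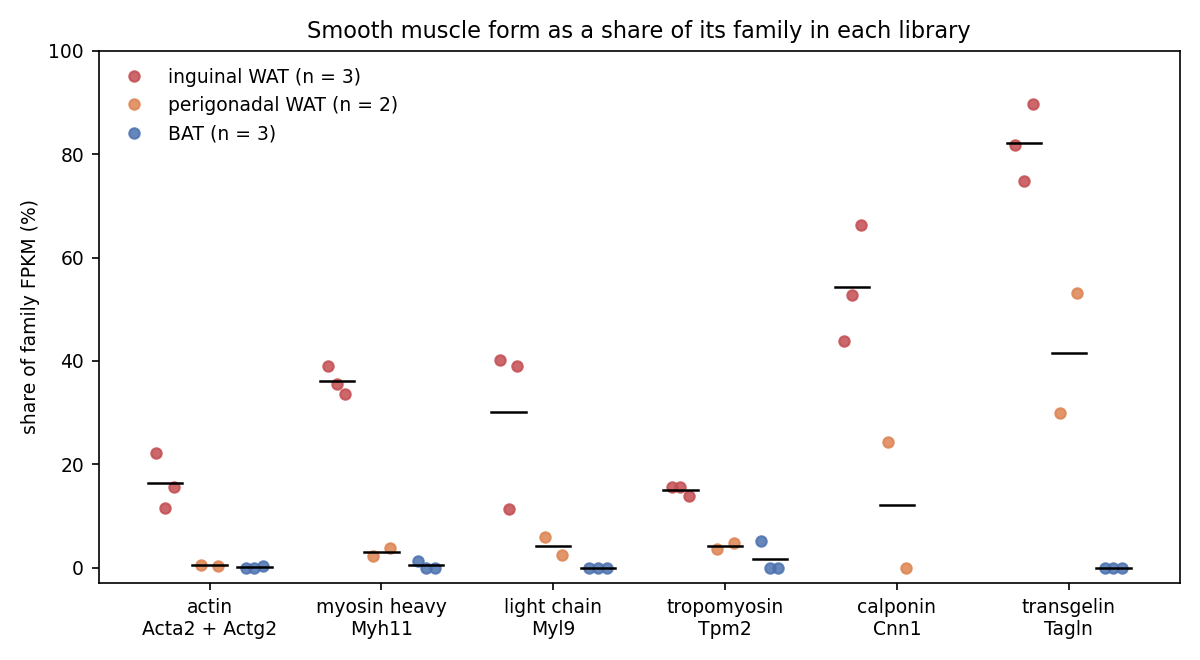
Percentage of each protein family's FPKM that came from the contractile genes named on the axis, with 1 point per library. A black line marks the mean of each depot (3 inguinal, 2 perigonadal and 3 BAT libraries). Calponin in BAT is not drawn. The myosin heavy chain share is 36.1 percent on average in inguinal WAT against 3.03 percent in perigonadal WAT and 0.458 percent in BAT.

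Of 13 relatives tested, 1 was called higher in inguinal WAT than in BAT and 0 lower, beside 1.73% of all tested genes called higher. An unadjusted limma p under 0.05 was found for 7 of the 13. The median difference of the 13 was 0.87. After median-ratio scaling 4 were called higher, where 265 of all 8742 tested genes were called higher. The gene called without that scaling was Cnn2, a calponin of smooth muscle and other cells, with an inguinal mean of 3.05 ± 2.42 FPKM (SD, n = 3) and 0 in BAT (limma adjusted p = 0.000654). Actb, cytoplasmic beta-actin, averaged 165 ± 66.4 FPKM over inguinal and 117 ± 9.74 FPKM over BAT libraries (SD, n = 3 each, difference 0.39, limma adjusted p = 0.954). For Myh9, nonmuscle myosin, these means were 7.12 ± 2.38 and 3.32 ± 0.140 FPKM (difference 0.87, limma adjusted p = 0.491). In perigonadal WAT Actg1 was the gene called against BAT (1.54, limma adjusted p = 0.0156), a call lost after median-ratio scaling, and 0 of 13 were called between the white depots by limma, with 2 at an unadjusted p under 0.05.

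Of 13 tested genes among 21 others of smooth muscle structure, 4 were called higher in inguinal WAT than in BAT and 0 lower. Of all tested genes 1.73% were called higher. The 4 were Csrp1, Flna, Actn1 and Pdlim3, all of actin filaments or their attachments. After median-ratio scaling 7 of 12 tested were called higher, where calls over all genes also rose, to 265 higher of 8742 tested. Csrp1 averaged 17.6 ± 9.42 FPKM over inguinal and 2.11 ± 0.506 FPKM over BAT libraries, and Flna, filamin A, 7.09 ± 4.01 and 0.439 ± 0.183 FPKM (SD, n = 3 each). Des, desmin, the intermediate filament protein of muscle, did not follow the members. Its means were 4.83 ± 1.89 (inguinal, n = 3), 7.01 ± 1.99 (perigonadal, n = 2) and 7.33 ± 0.472 FPKM (BAT, n = 3, SD), and it passed in no comparison. Of 25 genes that control contraction, 13 were tested and limma called 0 in any comparison, with 1, 4 and 1 at an unadjusted p under 0.05. Rhoa, the small GTPase upstream of contraction, averaged 43.7 ± 16.2 FPKM over inguinal and 37.2 ± 3.94 FPKM over BAT libraries (SD, n = 3 each, difference 0.15, limma adjusted p = 0.995). Several genes used as marks of contractile smooth muscle were low or absent. Myocd, the smooth muscle coactivator of SRF, was at 0 in all inguinal and BAT libraries. It had an estimated 4 fragments in perigonadal replicate 1. Pln and Casq2, of calcium storage, were at 0 in all libraries. Lmod1 and Kcnmb1 reached no more than 0.523 and 0.455 FPKM in inguinal WAT and were at 0 in all perigonadal and BAT libraries. Itga8 and Ppp1r14a, at up to 0.837 and 0.629 FPKM in inguinal WAT, were also at 0 in both other depots. At this depth a value of 0 cannot be told from a low level.

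The inguinal libraries were unequal in these genes. Inguinal replicate 1 was the highest of the 3 for 9 of 10 genes, the exception being Cald1, whose highest value was in replicate 2. Between replicates 1 and 3 the ratio ran from 2.58 (Myl9) to 7.86 (Actg2), with a median of 3.19, beside 2.21 for all tested genes. With FPKM totals made equal, replicate 1 was still the highest for 9 of 10 genes, and the median ratio was 1.66, beside 1.15 for all tested genes. On that scale Acta2 in replicates 2 and 3 stood at 44.4 and 55.1 percent of replicate 1, while Ucp1 stood at 95.6 and 80.5 percent and Actb at 87.5 and 79.8 percent.

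**Figure D4:**
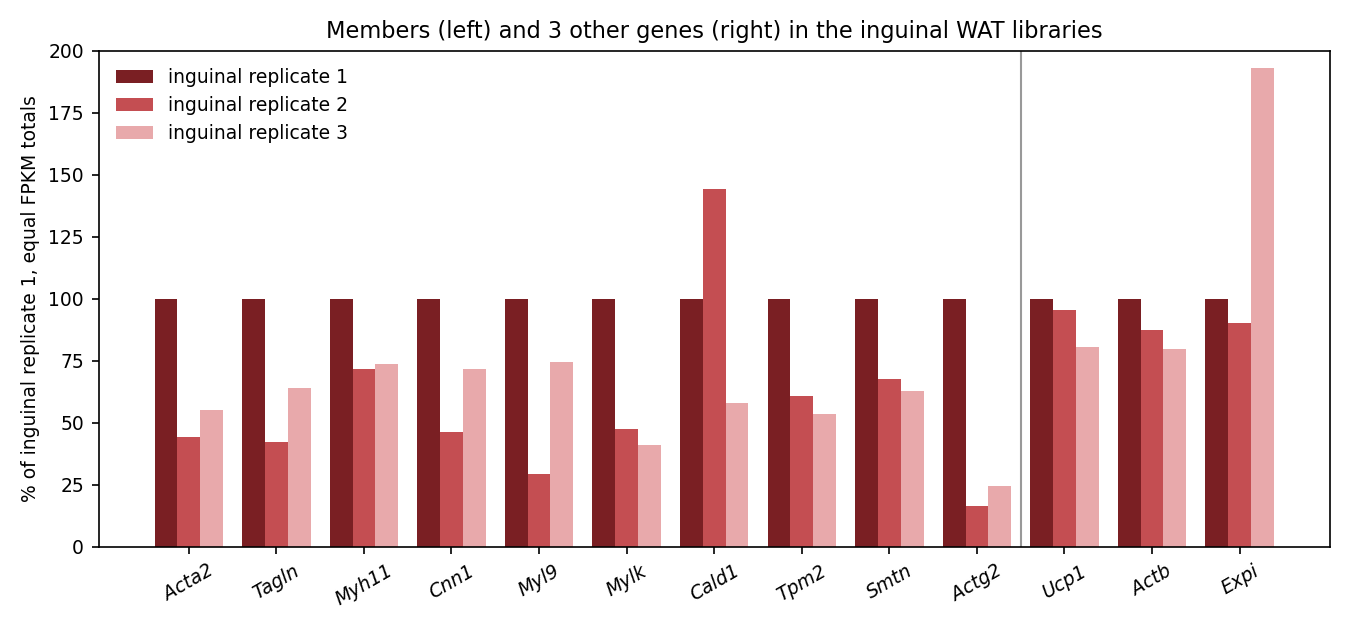
Level in each inguinal WAT library as a percentage of inguinal replicate 1, after making FPKM totals equal, for the 10 contractile genes (left of the line) and for Ucp1, Actb and Expi (right). Replicate 1 is the highest for 9 of the 10 contractile genes, while Expi, a secreted mammary protein, reaches 193 percent in replicate 3.

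Markers of other cell types moved with some of these values, and their part in the results was not tested. Of 9 tested basal and myoepithelial genes, 6 were called over BAT in inguinal WAT, beside 1.73% of all tested genes called higher. Of the 10 on the list, 7 were at 0 in all BAT libraries. The summed level of the list ran from 17.6 to 44.3 FPKM in inguinal WAT, 11.3 to 15.8 in perigonadal WAT and 2.29 to 4.72 in BAT. Krt5, a basal keratin, had 10.3, 5.0 and 2.63 FPKM in inguinal replicates 1, 2 and 3, unscaled values that ran in the same order as those of Acta2 and also of Ucp1. With equal totals Acta2 was lowest in replicate 2. Krt5 was not compared with Acta2 or Ucp1 on that scale. Its values in replicates 1, 2 and 3 rest on an estimated 55, 25 and 13 fragments. Oxtr, the oxytocin receptor of myoepithelium and smooth muscle, averaged 3.05 ± 1.32 FPKM over inguinal (SD, n = 3) and 4.56 ± 1.33 FPKM over perigonadal libraries (SD, n = 2) and was at 0 in BAT. Oxtr and Itga6 made up most of the list's perigonadal sum. Itga6 had 9.59 and 6.09 FPKM in perigonadal replicates 1 and 2 and 2.00 to 3.74 FPKM in BAT, while Krt5 averaged 0.359 FPKM in perigonadal WAT. Between the white depots, limma called 3 of 9 tested genes higher in inguinal WAT (Krt5, Krt14 and Krt17) and 0 lower, beside 0.301% of all tested genes called higher. Of 13 tested mammary luminal and milk genes 9 were called higher in inguinal WAT than in BAT, beside the same 1.73% of all tested genes. The list summed to 118 to 154 FPKM in inguinal WAT, 3.07 to 3.89 in perigonadal WAT and 7.02 to 22.3 in BAT. Nearly all of the BAT sum was Csn3, at 7.02, 13.1 and 22.0 FPKM in BAT replicates 1, 2 and 3. Csn3 did not differ between inguinal WAT and BAT (limma adjusted p = 0.995), and 16 of the 18 genes on the list were at 0 in all BAT libraries. Expi was at 63.5, 55.2 and 63.7 FPKM in inguinal replicates 1, 2 and 3, or at 100, 90.3 and 193 percent of replicate 1 with equal totals.

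Markers of mural cells and pericytes summed to 4.59 to 8.67 FPKM in inguinal WAT, 7.51 to 24.5 in perigonadal WAT and 2.66 to 4.39 in BAT, and 0 of 4 tested genes were called in inguinal WAT against BAT by limma (1 at an unadjusted p under 0.05), although all 4 differences were above 0, with a median of 0.59. Cspg4, the proteoglycan NG2 of pericytes, averaged 2.88 ± 0.804 FPKM over inguinal and 1.60 ± 0.328 FPKM over BAT libraries (SD, n = 3 each, limma adjusted p = 0.865). Rgs5, a pericyte regulator of G protein signalling, averaged 1.14 ± 0.691 and 0.815 ± 0.561 FPKM (limma adjusted p = 0.995). Higd1b and Cox4i2 were at 0 in both white depots and in BAT replicates 1 and 2. In perigonadal WAT Mcam was called higher than in BAT (limma adjusted p = 0.00226), at 7.03 FPKM in perigonadal replicate 1 and 1.34 in replicate 2. Cald1 (8.75 and 3.21 FPKM) was higher in replicate 1 too, as were Actb (249 and 186 FPKM) and the FPKM totals (206549 and 147932). From 2 libraries it cannot be told whether Mcam and Cald1 move together. Fibroblast genes summed to 19.5 to 31.7 FPKM in inguinal WAT, to 117 and 22.7 FPKM in perigonadal replicates 1 and 2, and to 3.60 to 11.8 FPKM in BAT. Of 6 tested, 4 were called higher in perigonadal WAT than in BAT, beside 4.91% of all tested genes. After median-ratio scaling this was 1, and with equal FPKM totals 2. In inguinal WAT 1 of 6, Postn, was called higher than in BAT (difference 2.04, limma adjusted p = 0.000183), beside 1.73% of all tested genes. All 6 inguinal differences from BAT were above 0, with a median of 0.93, and 5 had an unadjusted limma p under 0.05. Endothelial markers summed to 1.27 to 4.66, 8.68 to 16.1 and 2.61 to 4.11 FPKM in the 3 depots. The skeletal muscle genes Ckm, Mylpf, Tnnt3, Tnni2, Atp2a1, Mb and Actn3 were at 0 in all inguinal libraries. Myl1 had 11.7 to 17.8 FPKM there and 10.4 to 17.6 FPKM in BAT. Mb was called lower than in BAT in inguinal WAT (limma adjusted p = 0.00074) and perigonadal WAT (limma adjusted p = 0.0115).

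Across the 8 libraries, the genes whose log2(FPKM + 1) was most like the mean of the 10 members were Cd9, a tetraspanin (r = 0.97), Csrp1 (0.97), Ly6e, a surface protein (0.97), Flna (0.97) and Krt5 (0.95), among 4015 candidates. The points share their depots, so r describes the depot pattern. Cd9 had 13.0, 4.32 and 5.63 FPKM in inguinal WAT, 1.83 and 1.19 in perigonadal WAT and 0, 0 and 0.688 in BAT. Within the group, r with the mean of the other 9 members was 0.89 to 0.99 for 9 genes and 0.53 for Cald1.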

How the data were processed

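The submitters' processing notes name mm9, TopHat and Cufflinks, without versions. How strand was used and libraries were scaled was not given in the sources used here. Each deposited file held the authors' FPKM of 28702 transcripts for 1 library as a text attribute, so no count table was used. FPKM were summed per gene. Genes with at least 1 FPKM in at least 2 libraries and a transcript of at least 300 nt were tested with limma 3.58.1 (R 4.3.3, variance trend, log2(FPKM + 1), 3 groups in 1 model, two-sided) and called at a Benjamini-Hochberg adjusted p under 0.05. Differences understate changes of low genes. Fragments came from FPKM and its deposited upper bound, for 8 members with 1 transcript directly and otherwise from library factors. Intervals and the floor of 3 fragments cover counting error only. Whether libraries came from separate animals is not stated in the labels, and the spread behind each p-value may be technical. Scripts ran in Python 3.11.15 and were tested on simulated data.

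Members and lists were chosen with earlier results of these data known. The regulatory light chain share used Myl9 and Myl12b only (Myl12a was not analysed here). Named genes were the 10 members, their relatives, up to 4 called genes per list by mean FPKM (with fewer than 2 called, the 2 highest) and the 5 genes most like the members. Genes named at or near 0, Myl1, Mcam, Itga6, Des, Actn1 and Pdlim3 were added after their values were seen. One result on other smooth muscle structure genes is not reported here. Alternatives were pseudocounts of 0.1 and 5, other filters, 2 scalings, fits of only the groups compared, no variance trend, the most abundant transcript, a replicate block and each library left out.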

Additional observations from a re-analysis of the deposited data

How the results depend on the processing

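Calls among the 10 contractile genes numbered 8 (inguinal WAT and BAT), 1 (perigonadal WAT and BAT) and 4 (inguinal and perigonadal WAT). Without a filter on low values, which raised the number of tested genes from 8958 to 15148, these were 2 (Acta2 and Tagln), 0 and 0. A minimum of 5 FPKM left 3 of the 10 genes to test and 3, 0 and 2 calls. A pseudocount of 0.1 gave 3 calls for perigonadal WAT against BAT and 1 for inguinal against perigonadal WAT, and a fit of only the groups compared gave 2 for perigonadal WAT against BAT. Leaving out each library gave 6 to 9, 0 to 1 and 2 to 5 calls. The fit with the replicate block gave 9, 1 and 6 calls. Samples share only a number: same-numbered inguinal and BAT libraries had correlations of deviations of 0.126, 0.0804 and 0.10, each the highest of its row, and those with perigonadal libraries were below 0. Counts over all genes moved far more, from 11 to 446, 105 to 1326 and 5 to 220.

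Of 513 values of single-gene differences under the alternatives, 466 kept direction and call, 23 lost and 18 gained a call, and 6 changed sign or fell to 0, none of them called. These were Cnn1 in perigonadal WAT minus BAT (-0.055 with median-ratio scaling, -0.015 with equal FPKM totals, -0.21 without perigonadal replicate 1 and -0.02 without BAT replicate 1, range with each library left out -0.21 to 0.39), Actg2 in the same comparison (0.00 without perigonadal replicate 2, range 0.00 to 0.47) and Smtn in inguinal minus perigonadal WAT (-0.10 without perigonadal replicate 2, range -0.10 to 0.60). All 133 share values kept their direction, the replicate block included. The cause of the changed counts was not tested. Depth limits the low end: the BAT values of the 10 genes rest on 0 to 6 fragments each over 3 libraries.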
